A study of Bos taurus with 8 samples.

Results

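The insulin-like growth factor (IGF) axis was followed on bovine blastocyst arrays through 9 genes: the ligand IGF2, the receptors IGF1R and IGF2R, and the binding proteins IGFBP2, IGFBP3, IGFBP4, IGFBP5, IGFBP6 and IGFBP7. Every array probe whose platform annotation carried one of these symbols, case ignored, was taken. This gave 11 probes of 43794 and 9 genes of 15227 annotated symbols, with 3 probes for IGF2 and 1 for each of the other genes. Of the 11 probes, 9 were above background often enough to be tested, and 2 were not: a probe of IGF2 and the probe of IGFBP5.

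IGF2 is a secreted growth factor that signals through the tyrosine kinase receptor IGF1R to the AKT and MAPK pathways. In mouse and human, IGF2R, the mannose 6-phosphate receptor, carries IGF2 to the lysosome for degradation. The IGF binding proteins hold IGFs outside cells, and proteases that cut them set the ligand free. Early mammalian embryos express parts of the axis, IGFs promote growth of cultured embryos, and IGF2 and IGF2R are classic imprinted genes.

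The embryos were made by in vitro maturation and fertilization with oocytes from slaughterhouse ovaries, and were cultured in synthetic oviductal fluid. The AAPH group received 0.01 mM AAPH, an azo compound that breaks down into peroxyl radicals, from day 3 to day 7, with a medium change on day 5. The control group, named Control-Oxid in the labels, had the same media without AAPH. Blastocysts were collected 196 hours after fertilization in pools of 10 embryos, with 4 pools per treatment, so the values describe pools and not single embryos. Amplified RNA of both groups was hybridised together on 8 two-colour arrays, 4 with AAPH RNA in Cy5 and 4 with it in Cy3. The arrays formed 4 swap pairs, each holding 1 AAPH and 1 control pool in both dye orientations, and this pairing was derived from the data. The comparison asks whether exposure to a radical generator alters transcripts of the blastocyst.

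Levels below are log2 signals of a pool after scaling between channels, comparable between pools for 1 probe but not between probes. Ratios are log2 values of the AAPH signal over the control signal, averaged over the 4 swap pairs, and their SD is the spread between those pairs. The background limit of an array was set from its negative control spots, at their median plus 3 median absolute deviations, and signal passed it for 13954 to 34347 probes per array in AAPH RNA and 14112 to 35841 in control RNA. Of 32196 probes tested with limma, 0 had an adjusted p under 0.05 (0% called), while 4354 had an unadjusted p under 0.05, where 1609.8 would be expected with no differences. The trophectoderm markers KRT8, KRT18 and IFNT and the pluripotency markers POU5F1 and NANOG passed the background limit on 8 of 8 arrays in either group. Other markers of these types passed it on fewer arrays. CDX2 did so on 4 of 8 arrays in AAPH RNA and 5 of 8 in control RNA, and SOX2 on 6 of 8 in either.

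IGFBP7 and IGF2 had the largest ratios of the 9 genes, and the receptors and the other binding proteins lay near 0. Of the 9 probes tested, 0 had an adjusted p under 0.05. At an unadjusted p under 0.05, 3 were higher in AAPH pools, namely IGFBP7, an IGF2 probe and IGFBP4, against 5.68% of all probes tested. None was lower, against 7.84% of all probes tested. The median ratio of the 11 probes was 0.10, against -0.00019 over all probes tested. The 11 probes include 3 of IGF2 and 2 that were not tested, and the median is the value of IGF2 probe EMBV3_16283. Over all probes tested, the median size of a ratio, whatever its sign, was 0.087. In pools of whole embryos, fewer cells of a type and less RNA per cell cannot be told apart.

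**Figure D1:**
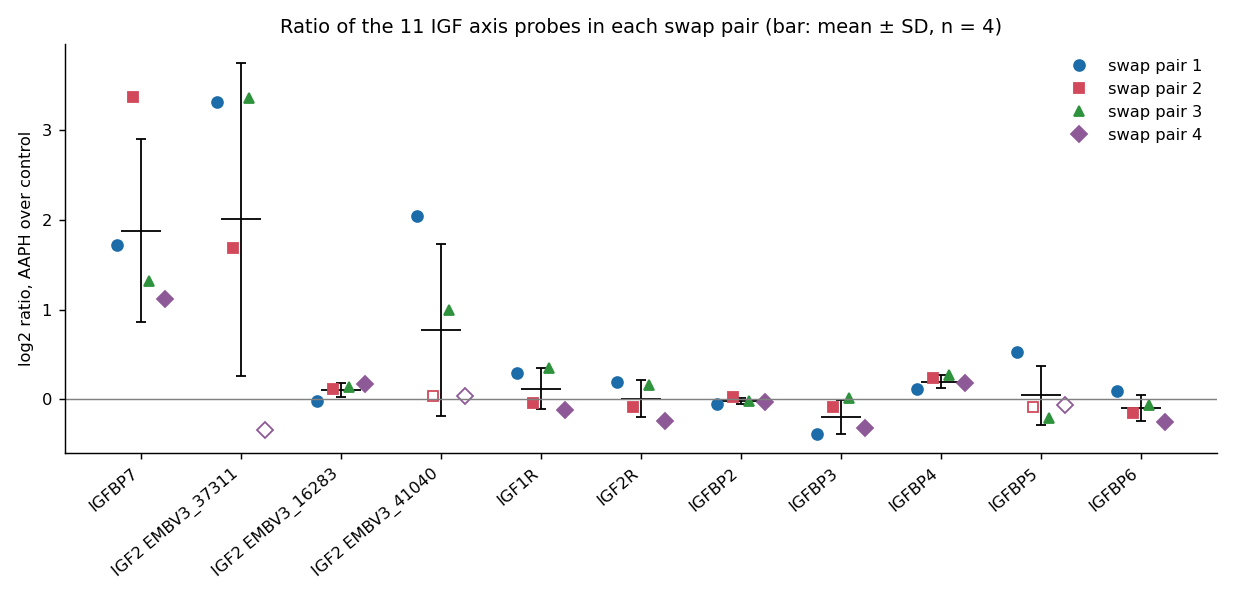
The vertical axis gives the log2 ratio of AAPH over control for each of the 11 IGF axis probes along the horizontal axis, with 1 symbol per swap pair and the mean ± SD over 4 pairs as a bar; open symbols mark pairs in which the probe was above background on 0 arrays in both groups. IGFBP7 lies between 1.12 and 3.37 in all 4 pairs, IGF2 probe EMBV3_37311 lies above 1.6 in 3 pairs and at -0.34 in swap pair 4, and the receptors and IGFBP2 to IGFBP6 lie close to 0.

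IGF2 was measured by 3 probes whose ratios differed widely. The brightest, EMBV3_37311, had levels of 12.11, 8.58, 11.50 and 6.36 in the AAPH pools of swap pairs 1 to 4, against 8.80, 6.89, 8.14 and 6.71 in the control pools. The AAPH pools of pairs 1 and 3 lay above every control pool, the AAPH pool of pair 2 lay between the control pools, and in pair 4 neither RNA was above background on either of the 2 arrays. The groups therefore overlapped.

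Within pairs, the ratios of this probe were 3.31, 1.69, 3.36 and -0.34. The mean was 2.01 ± 1.75 (SD, n = 4), a fold of 4.01. This mean was the 5th largest of the 32196 ratios tested (limma, adjusted p = 0.274). The limma 95% interval of the fold, 1.45 to 11.1, is narrower than these 4 pairs alone would give. AAPH pools averaged 9.64 ± 2.67, with control pools at 7.63 ± 1.00, so the spread between AAPH pools exceeded the mean difference. Without swap pair 4 the ratio was 2.79, without pair 1 it was 1.57, without pair 2 it was 2.11 and without pair 3 it was 1.55 (limma, adjusted p = 0.293, 0.329, 0.486 and 0.568). The unadjusted p of IGF2 was no longer under 0.05 without pair 1, without pair 3, with a robust variance trend, or within slides 78 and 79. The ratio was 2.50 within slide 26, which held pairs 1 and 2, and 1.51 within slides 78 and 79, which held pairs 3 and 4.

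The untested IGF2 probe, EMBV3_41040, was above background on 3 of 8 arrays in AAPH RNA and on 1 of 8 in control RNA, too few for a test. Its levels were 8.50, 5.99, 6.90 and 5.82 in AAPH pools, and 6.45, 5.96, 5.91 and 5.78 in control pools. The AAPH pools of pairs 1 and 3 were the brightest. Their ratios, 2.04 and 0.99, are set against control pools that were above background on 1 of 2 arrays in pair 1 and on 0 of 2 in pair 3, and in pairs 2 and 4 both groups were at background, at 0.03 and 0.04. The mean of 0.78 ± 0.96 (SD, n = 4) is therefore limited by background and was not used to judge the other IGF2 probes.

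The other tested IGF2 probe, EMBV3_16283, was almost flat and close to background. Its levels were 6.71, 6.84, 6.81 and 6.88 in AAPH pools, and 6.73, 6.72, 6.67 and 6.71 in control pools, a narrow span in both groups. The ratios were -0.01, 0.12, 0.14 and 0.17, with a mean of 0.10 ± 0.08 (SD, n = 4; limma, adjusted p = 0.522). On each of the 8 arrays this probe was above background in the Cy3 channel and not in Cy5, whichever RNA the dye marked. Each of its ratios thus sets a signal above background against one that was not, and is limited by background. The mean ratio over both tested IGF2 probes was 1.05, which includes this limited probe.

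**Figure D2:**
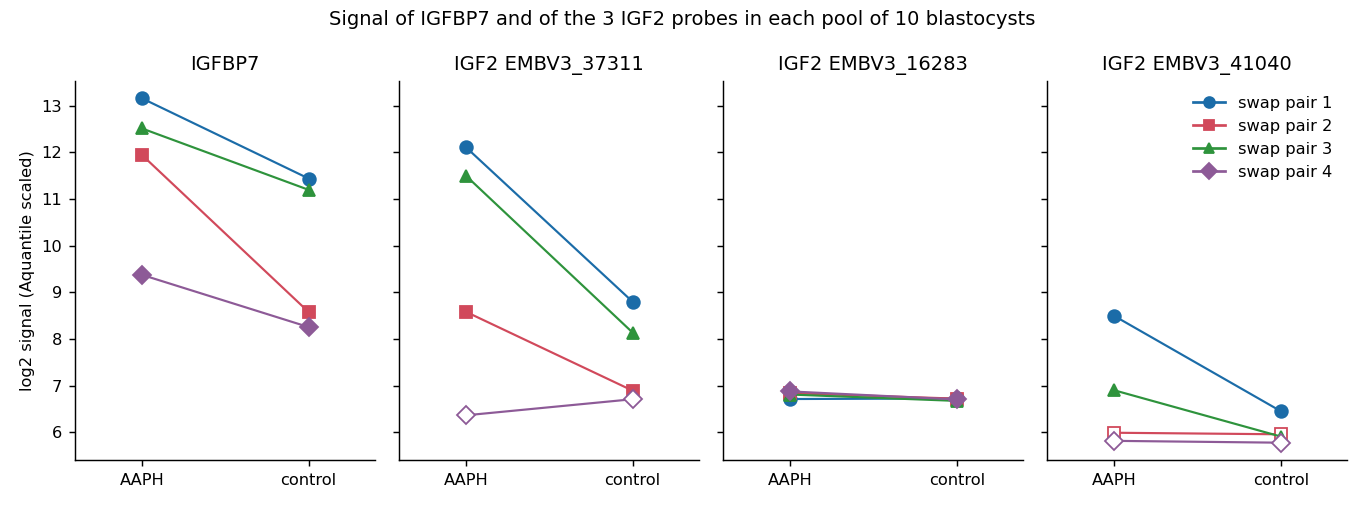
The vertical axis gives the log2 signal of IGFBP7 and of each IGF2 probe in the AAPH pool (left) and the control pool (right) of each swap pair, joined by a line; open symbols mark pools in which the probe was above background on 0 of 2 arrays. IGFBP7 is higher in the AAPH pool than in the control pool along every line, IGF2 probe EMBV3_37311 is so in pairs 1 to 3, and IGF2 probe EMBV3_16283 stays between 6.67 and 6.88 in all pools.

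The readings of the 2 tested IGF2 probes also differed within dye orientations, with those of EMBV3_16283 limited by background. With AAPH RNA in Cy5, EMBV3_37311 had a mean ratio of 2.07, and with AAPH RNA in Cy3 a mean of 1.94. Both arrays of each pair gave it the same sign, and they differed by at most 0.42. EMBV3_16283 changed sign with the dye: its ratio lay between -0.42 and -0.08 on the 4 arrays with AAPH in Cy5, and between 0.10 and 0.69 on the 4 arrays with AAPH in Cy3. The averaged value of 0.10 is thus made of opposed readings. Which part of the IGF2 transcripts each probe matches was not stated in the sources used here.

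**Figure D3:**
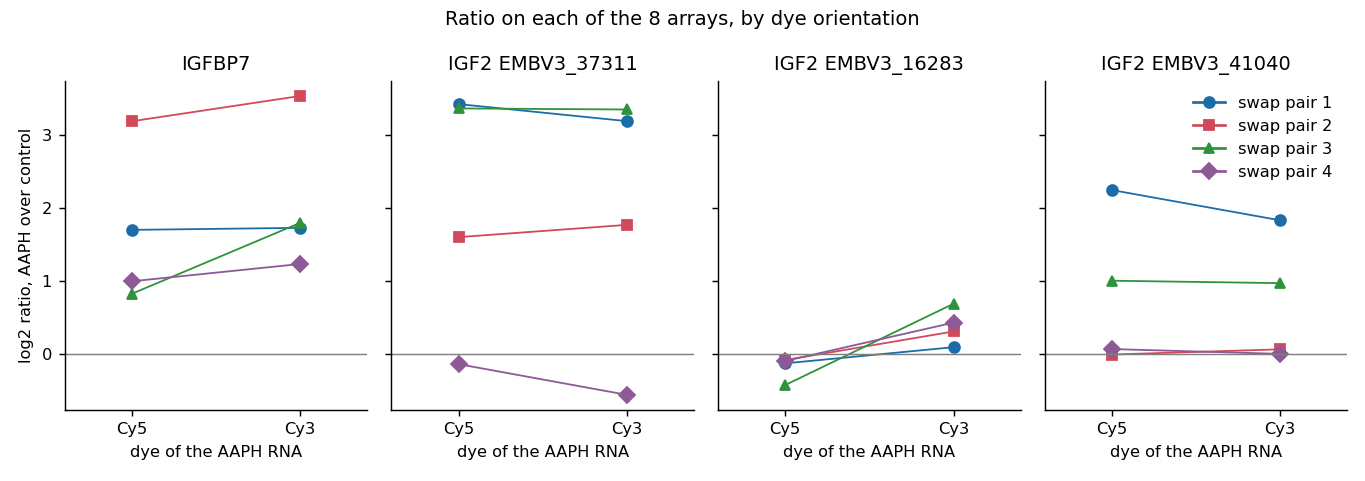
The vertical axis gives the log2 ratio of AAPH over control on single arrays with AAPH RNA in Cy5 (left) or Cy3 (right), and lines join the 2 arrays of a swap pair. IGFBP7 and IGF2 probes EMBV3_37311 and EMBV3_41040 differ by at most 0.97 between the 2 arrays of a pair, while IGF2 probe EMBV3_16283 is below 0 on all 4 arrays with AAPH in Cy5 and above 0 on all 4 with AAPH in Cy3.

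The receptors showed no difference larger than the spread between pairs. IGF1R, which transmits the IGF signal, had levels of 7.44, 7.11, 7.04 and 6.94 in AAPH pools, against 7.15, 7.15, 6.69 and 7.05 in control pools. The probe passed background on 6 of 8 arrays in AAPH RNA and 5 of 8 in control RNA. The groups overlapped throughout, and the ratio was above 0 in pairs 1 and 3 and below 0 in pairs 2 and 4. Its mean was 0.12 ± 0.23 (SD, n = 4), with a 95% interval of -0.12 to 0.36 (limma, adjusted p = 0.622).

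IGF2R, the clearance receptor for IGF2, was above background on every array in both groups. Its levels were 8.74, 8.09, 8.67 and 8.50 in AAPH pools, against 8.55, 8.18, 8.52 and 8.74 in control pools. Pairs 1 and 3 were again slightly positive, at 0.19 and 0.16, and pairs 2 and 4 negative, at -0.08 and -0.24. The mean was 0.01 ± 0.21 (SD, n = 4), with a 95% interval of -0.22 to 0.23 (limma, adjusted p = 0.986), and its sign turned with median centring of the arrays, at -0.0446, so no direction is given.

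Among the binding proteins, IGFBP7 stood apart. IGFBP7 is a secreted protein of the extracellular matrix that binds IGFs only weakly. Its probe, EMBV3_33422, passed background on all 8 arrays in AAPH and in control RNA. Levels were 13.16, 11.95, 12.51 and 9.38 in the AAPH pools of pairs 1 to 4, against 11.44, 8.58, 11.20 and 8.26 in the control pools. Pools of 1 group differed widely and the groups overlapped, but in every pair the AAPH pool was higher.

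The IGFBP7 ratios were 1.72, 3.37, 1.32 and 1.12, with a mean of 1.88 ± 1.02 (SD, n = 4). This is a fold of 3.68 and the 9th largest of the 32196 ratios tested (limma, adjusted p = 0.180). The limma 95% interval of the fold, 2.02 to 6.72, is narrower than these 4 pairs alone would give. IGFBP7 was the only member higher in AAPH on 8 of 8 arrays, which held for 2% of all probes tested, and single arrays ranged from 0.83 to 3.54. With AAPH RNA in Cy5 the mean ratio was 1.68, and with AAPH RNA in Cy3 it was 2.08. Without swap pair 2, which had the largest ratio, the mean was 1.39.

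Whether IGFBP7 passed the threshold depended on the test. Among the 14304 probes above background on all 8 arrays of a group, where IGFBP7 and IGF2R were the members left, its adjusted p was 0.0434 (limma), with 0.245% of probes called higher. With the 8 single arrays fitted with a dye term and swap pair as a block it was 0.0193 (limma), with 0.441% of probes called higher. That fit used 1 correlation between the arrays of a pair, 0.312, for all probes, which need not hold for IGFBP7. With the arrays taken as 8 replicates and a dye term it was 0.0136 (limma), with 1.21% called higher. Both fits enter 8 arrays although the 2 arrays of a pair share their RNA, so their p-values can be too small. The ratio was 2.54 within slide 26 and 1.22 within slides 78 and 79.

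IGFBP4, an inhibitor of IGF action that is cut by the protease PAPPA, had small differences close to background. Its probe passed background on 6 of 8 arrays in either RNA, and in pairs 3 and 4 in the Cy3 channel alone. Its levels were 7.22, 7.43, 7.61 and 7.22 in AAPH pools, against 7.11, 7.20, 7.34 and 7.04 in control pools. The groups overlapped, and the AAPH pool was higher in each pair. The ratios of 0.11, 0.24, 0.27 and 0.18 had a mean of 0.20 ± 0.07 (SD, n = 4), a fold of 1.15 (limma, adjusted p = 0.285). The mean was 0.06 with AAPH RNA in Cy5 and 0.34 with it in Cy3, and 6 of 8 arrays were above 0. In pair 4 the array with AAPH RNA in Cy5 gave -0.16 and the array with it in Cy3 gave 0.52. The unadjusted p of IGFBP4 was no longer under 0.05 without pair 2, without pair 3 or within either set of slides.

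IGFBP7 and IGFBP4 were thus 2 of 9 tested probes with a higher AAPH pool in 4 of 4 pairs, where 11.5% of all probes tested had one. No member was lower in 4 of 4 pairs, against 10.7% of all probes tested.

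IGFBP3, the main carrier of IGFs in serum, had the most negative ratio of the 11 probes, and it was not past the threshold. Levels were 8.19, 8.14, 7.50 and 7.37 in AAPH pools, against 8.57, 8.23, 7.48 and 7.69 in control pools. Signal differed more between swap pairs than between groups, with pairs 1 and 2 brighter than pairs 3 and 4 in both. The ratios of -0.39, -0.09, 0.01 and -0.32 had a mean of -0.20 ± 0.19 (SD, n = 4), with a 95% interval of -0.41 to 0.02 (limma, adjusted p = 0.397). The probe passed background on 6 of 8 arrays in AAPH RNA and 7 of 8 in control RNA. Its mean ratio was -0.28 with AAPH RNA in Cy5 and -0.11 with it in Cy3. In pair 4 the array with AAPH RNA in Cy5, where AAPH signal was not above background, gave -0.64. The array of pair 4 with AAPH RNA in Cy3 gave 0.004.

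IGFBP2, a binding protein common in embryonic tissues, varied least. Its levels lay between 7.05 and 7.14 in AAPH pools and between 7.02 and 7.16 in control pools, and its ratio was -0.02 ± 0.04 (SD, n = 4), with a 95% interval of -0.16 to 0.13 (limma, adjusted p = 0.932), and 0.0412 with median centring of the arrays. IGFBP6, which prefers IGF2 over IGF1, had levels of 6.63 to 7.15 in AAPH pools and 6.87 to 7.06 in control pools. Its ratio was -0.09 ± 0.15, with a 95% interval of -0.28 to 0.09 (limma, adjusted p = 0.620). Both probes were close to background, IGFBP2 being above it on 6 of 8 arrays in either RNA and IGFBP6 on 4 in AAPH RNA and 5 in control RNA.

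IGFBP5, which binds to the extracellular matrix, was above background on 2 of 8 arrays in either RNA and was not tested. Its levels were 6.32 to 7.39 in AAPH pools and 6.38 to 6.85 in control pools. The ratio was 0.53 in pair 1 and between -0.21 and -0.06 in the other pairs. In the order of protein-coding genes of assembly ARS-UCD2.0, with non-coding genes left out, IGFBP2 and IGFBP5 are next to each other. In that order IGFBP3 lies beside IGFBP1, which was not above background often enough to be tested. IGF2 lies between INS, likewise not tested, and MRPL23, whose ratio was -0.13.

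The levels of IGF2 probe EMBV3_37311 and IGFBP7 ran together over the 8 pools, with a Pearson r of 0.90. The other pairs of tested members had r between -0.58 and 0.67. The AAPH and control pool of a swap pair share their arrays, so the 8 points are not independent, and these values are a description.

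By the same measure, the genes whose levels were most like IGFBP7 were IFIH1 (r = 0.992), a sensor of viral RNA, IFIT5 (r = 0.992), an interferon-induced RNA-binding protein, and PDGFC (r = 0.988), a platelet-derived growth factor. Their ratios were 1.15 ± 0.63, 1.56 ± 1.21 and 1.62 ± 0.95 (SD, n = 4), each largest in swap pair 2, which the choice by similar level favours. A second PDGFC probe was at 0.31. The genes most like IGF2 were PDLIM3 (r = 0.979), a cytoskeletal PDZ-LIM protein, EFEMP1 (r = 0.974), a matrix glycoprotein, and IFI44 (r = 0.971), an interferon-induced gene. PDLIM3 was at 0.78 ± 0.86, EFEMP1 at 0.89 ± 0.69 and IFI44 at 0.64 ± 0.45, and each had its smallest ratio in swap pair 4, again as the choice by similar level favours.

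The genes most like IGFBP4 were ACOT13 (r = 0.997), an acyl-CoA thioesterase, TM9SF2 (r = 0.989), a transmembrane protein, and PNN (r = 0.971), a splicing-associated nuclear protein. Their ratios were 0.40 ± 0.14, 0.38 ± 0.11 and 0.15 ± 0.06 (SD, n = 4). A second ACOT13 probe was at -0.03, and 2 other TM9SF2 probes had a median of -0.17.

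Fibroblast and connective tissue markers did not share 1 pattern over the pools. LUM, the matrix proteoglycan lumican, had levels of 13.52, 12.85, 13.55 and 9.53 in AAPH pools, against 11.24, 7.76, 11.19 and 7.83 in control pools. Like IGFBP7, LUM was lowest in the control pools of pairs 2 and 4, and its ratios of 2.29, 5.10, 2.36 and 1.70 were likewise largest in pair 2 and smallest in pair 4. VIM, the intermediate filament vimentin, was at 1.86 ± 0.62 and smallest in pair 3, and COL3A1, a fibrillar collagen, was at 1.61 ± 0.76 (SD, n = 4). VIM, COL3A1, POSTN and THY1 were also largest in pair 2, with POSTN at 0.75 and THY1 at 0.48. COL1A1, at 0.31, was above 0 in 4 of 4 pairs and largest in pair 3. DCN, COL1A2 and SPARC, at 0.78, 0.67 and 0.32, were largest in pair 1 and below 0 in pair 4. FN1, ACTA2 and TAGLN, at -0.02, -0.16 and -0.08, had negative ratios.

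Of 14 genes in this marker list, 12 were tested, 9 of them had a positive ratio, 8 had an unadjusted p under 0.05 and were higher in AAPH, 0 had an adjusted p under 0.05 (limma), and PDGFRB and FBLN1 were not above background often enough. The list median was 0.58, against 0.01 over all 12406 genes tested, of which 48.1% had a negative ratio. Of all genes tested, 7.67% were higher in AAPH and 7.36% lower at an unadjusted p under 0.05. The summed level of the list was 16.68, 16.37, 16.23 and 15.79 in the AAPH pools of pairs 1 to 4. In the control pools it was 16.26, 16.21, 16.13 and 15.68, so the AAPH pool was higher in each pair. The brightest probes weigh most in such a sum. Of 12 cumulus and granulosa markers 10 were tested, with a median of 0.14 and summed levels of 10.90 to 12.36 in AAPH pools and 10.98 to 11.89 in control pools. This sum was higher in the AAPH pool in pairs 1 and 3 and lower in pairs 2 and 4. PTX3, TNFAIP6 and INHBA, at 1.10, 0.85 and 0.50, were higher and HSD3B1, at -0.28, lower at an unadjusted p under 0.05, while AMH and FOXL2, which mark granulosa cells, were not above background often enough to be tested. The part of these cell types in the IGFBP7 and IGF2 values was not tested.

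Trophectoderm markers had a median ratio of -0.06 over 13 of 13 genes, with summed levels of 16.53 to 17.07 in AAPH pools and 16.60 to 17.03 in control pools. This sum was higher in the AAPH pool in pairs 1 and 3 and lower in pairs 2 and 4. DLX3, at -0.31 and lower in 4 of 4 pairs, was the 1 gene of this list past an unadjusted p of 0.05. Inner cell mass markers had a median of 0.00 over 9 of 10 genes, and the DNA methyltransferase DNMT3B, at -0.42, was the 1 gene past it. Its ratio was almost 0 in pair 1, at -0.0005, and -0.58, -0.43 and -0.67 in pairs 2 to 4. Blood markers had a median of -0.05 over 6 of 7 genes, with 0 past it (0 also had an adjusted p under 0.05 in limma). Hypoblast markers had a median of 0.09 over 12 of 13 genes. APOA1, NID2, PDGFRA and AFP, at 0.40, 0.47, 0.45 and 0.15, were higher and FOXA2, at -0.41, lower at an unadjusted p under 0.05. These were 4 and 1 of the 12 genes, against 7.67% and 7.36% of all genes tested. FOXA2 was above background on only 2 of 8 arrays in AAPH RNA and 4 of 8 in control RNA, so its ratio is limited by background. AFP was above background on 4 of 8 arrays in either RNA.

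**Figure D4:**
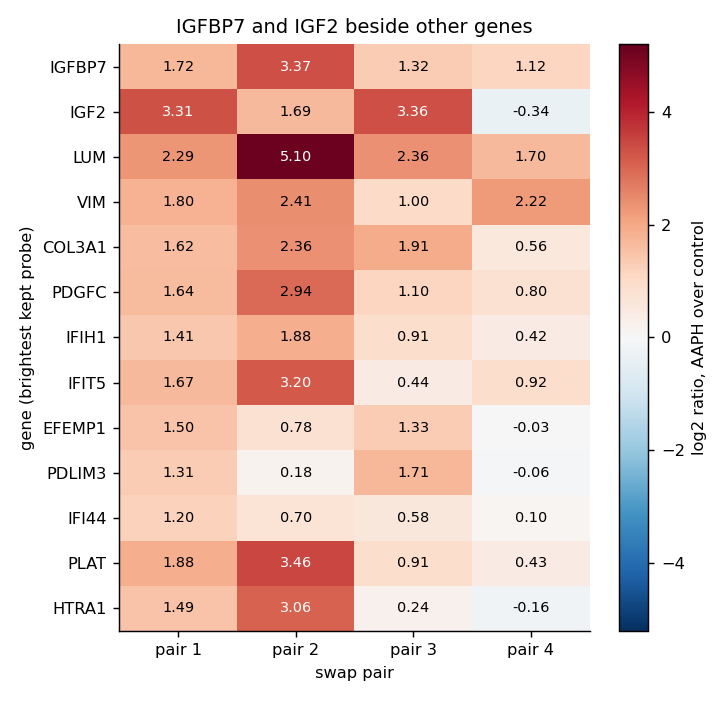
Each cell gives the log2 ratio of AAPH over control in 1 swap pair (columns), in colour and as a number, for IGFBP7, IGF2 probe EMBV3_37311 and other genes (rows): connective tissue markers, the genes of most similar level and the proteases PLAT and HTRA1. IGFBP7, LUM, VIM, COL3A1, PDGFC, IFIH1, IFIT5, PLAT and HTRA1 are highest in pair 2, and IGF2, EFEMP1, PDLIM3 and HTRA1 are below 0 in pair 4.

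The rest of the IGF pathway was read from 8 gene lists, each gene by its brightest tested probe, and in each list 0 genes had an adjusted p under 0.05 (limma). Among IGF and insulin ligands and receptors outside the members, 4 of 10 genes were tested, with a median of 0.00. INSR, the insulin receptor, which also binds IGF2, had ratios of -0.54, -0.50, -0.17 and -0.62, and was lower in AAPH in 4 of 4 pairs, at -0.46 ± 0.20 (SD, n = 4; limma, adjusted p = 0.181). It was the 1 gene of this list with an unadjusted p under 0.05, where 7.36% of all genes tested were lower in AAPH. IGF1, the other IGF, was at 0.11 ± 0.08.

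Of 20 proteases of binding proteins and their inhibitors, 14 were tested, and the median was 0.09. Of these 9 had a positive and 5 a negative ratio, where 48.1% of all genes tested had a negative one. PLAT, the tissue plasminogen activator, had ratios of 1.88, 3.46, 0.91 and 0.43, with a mean of 1.67 ± 1.34 (SD, n = 4; limma, adjusted p = 0.256). It was the 1 gene past an unadjusted p of 0.05, where 7.67% of all genes tested were higher in AAPH. HTRA1, a secreted serine protease, had 1.49, 3.06, 0.24 and -0.16, with a mean of 1.16 ± 1.45 (limma, adjusted p = 0.389). Both had their largest ratio in swap pair 2, as IGFBP7 did.

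Of 15 genes of the IGF2 imprinted cluster and regulators of IGF2, 10 were tested, with a median of -0.08. Of these 8 had a negative ratio, where 48.1% of all genes tested had one. IGF2BP1, which binds IGF2 mRNA, was at -0.33 ± 0.19 and PLAG1, a transcription factor that activates IGF2, at -0.21 ± 0.10 (SD, n = 4). Both were lower and CTCF, the insulator protein of the cluster, at 0.25, was higher at an unadjusted p under 0.05. Over all genes tested, 7.36% were lower and 7.67% higher at this limit. The ratio of IGF2BP1 was the largest in size among the 10 genes tested. H19 and HMGA2, also in this list, had no annotated probe.

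Signalling genes downstream of the receptors had medians near 0. Of 25 receptor adaptors and PI3K-AKT genes 17 were tested, with a median of -0.01, and INPPL1, a phosphoinositide phosphatase, was at 0.43 ± 0.11 while the adaptor GAB1 was at -0.23 ± 0.11 (SD, n = 4). In this list 1 gene was higher and 2 lower at an unadjusted p under 0.05, against 7.67% and 7.36% of all genes, and the other lower gene was PIK3CB, a catalytic subunit of PI3K, at -0.18. The mTOR branch, with 11 of 15 genes tested, had 0 such genes and a median of -0.02. Its genes of smallest p were the kinase RPS6KB1, at -0.26 ± 0.28, and RICTOR, a subunit of mTOR complex 2, at 0.37 ± 0.46, whose second probe was at -0.07. The RAS-MAPK branch, with 12 of 16 tested, had a median of -0.05 and 1 such gene in each direction: NRAS, at 0.42 ± 0.30, whose 2 other probes had a median of 0.02, and the kinase MAP2K2, at -0.20 ± 0.13.

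Genes that sort lysosomal proteins with IGF2R were tested for 13 of 14, with a median of -0.12 and 9 negative ratios, where 48.1% of all genes tested had one. At an unadjusted p under 0.05, 2 of the 13 were higher and 1 lower, against 7.67% and 7.36% of all genes. SORT1, the sorting receptor sortilin, was at 0.49 ± 0.09 and higher in 4 of 4 pairs (SD, n = 4; limma, adjusted p = 0.145). VPS26A, a retromer subunit, was at 0.22. NAGPA, which uncovers the mannose 6-phosphate signal read by IGF2R, was at -0.40 ± 0.30, but its second probe was at 0.11. Other imprinted genes, 11 of 19 tested, had a median of -0.08 and 1 gene in each direction past an unadjusted p of 0.05, NAP1L5 at 0.28 ± 0.18 and ASCL2, a trophoblast transcription factor, at -0.25 ± 0.17 (SD, n = 4).

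**Figure D5:**
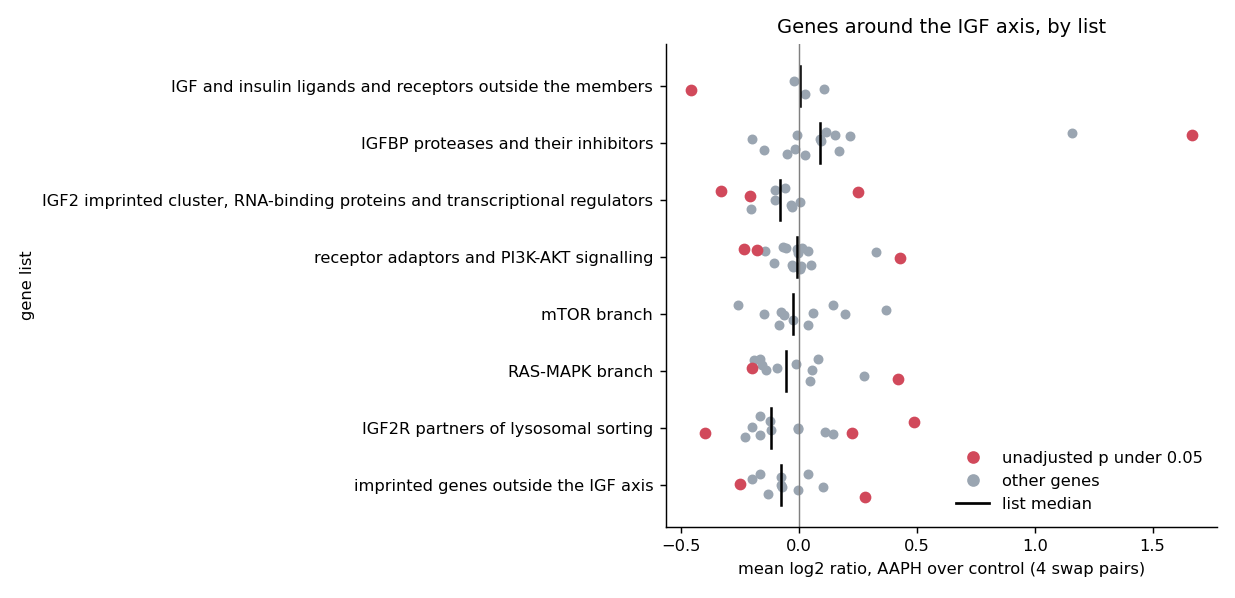
Each point is the mean log2 ratio of AAPH over control of 1 gene over 4 swap pairs (horizontal axis), by gene list (vertical axis); red points had an unadjusted p under 0.05, and black lines mark list medians. Medians lie between -0.12 and 0.09, and only PLAT and HTRA1, among proteases of binding proteins, lie beyond 1.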

How the data were processed

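RNA of pooled bovine blastocysts was amplified, labelled and hybridised to 8 two-colour arrays. The deposited scanner files hold foreground and background intensity per spot in both dyes, per the file headers, and 14 lines of statistics in each were left out. A deposited table of the authors' log2 ratios served as an alternative. The submitters' processing notes name limma, with no settings. Set against the scanner values, the table's columns had correlations of 0.974 to 0.994, a log2 scale and the direction AAPH over control. Their medians for arrays 1 to 8 were -0.0135, -0.00863, 0.0117, 0.00944, -0.0152, 0.00799, -0.0188 and -0.0197. How that table was centred and normalized was not stated in the sources used here.

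Intensities were processed in R 4.3.3 with limma 3.58.1 (normexp with an offset of 50 on mean foreground and median background, then loess, with control spots at weight 0). Ratios were turned to AAPH over control. Levels followed Aquantile scaling. Probes above background on at least 4 of 8 arrays in AAPH or control RNA, judged against 153 negative control spots, were tested with lmFit and eBayes against 0, with Benjamini-Hochberg adjustment over 32196 probes. The procedure was tested on simulated data. Of 43794 probes, 21790 had 1 annotated symbol and 22004 had none.

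Swap pairs were arrays 1 and 3, 2 and 4, 7 and 5, and 8 and 6. Arrays of opposite orientation were matched by how far each array's departures from the mean of its orientation correlated, with correlations of 0.146 to 0.560 in these pairs and -0.343 to 0.0480 in the 12 others. The labels do not state this pairing. The labels do not tell whether the pools stem from different fertilization runs, and p-values cover only the spread among the pools at hand. With 4 pairs, an exact sign-flip test cannot go below 0.125, so none is given.

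Members and gene lists were chosen with earlier results of these data known. The genes named were all members, the 2 of smallest p in each pathway list, the 3 of most similar level to the 3 members of largest ratio, and marker genes. VIM, LUM and COL3A1 had appeared in those earlier results. CTCF, PIK3CB and VPS26A, outside this rule, were chosen after their values were seen. Alternatives varied the filter, background correction, normalization, replicate unit, variance model, slide and swap pairs used.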

Additional observations from a re-analysis of the deposited data

Results flagged for a closer look

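The IGF2 probe EMBV3_16283 read in opposite directions in the 2 dye orientations: its mean ratio of AAPH over control was -0.178 on the 4 arrays with AAPH RNA in Cy5 and 0.385 on the 4 arrays with AAPH RNA in Cy3, with every array of an orientation on the same side of 0. The difference between orientations was not tested. In levels and ratios of the members, 33 groups of 4 values were checked for a value far from the others, and 0 were found, where chance gives about 1.65.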

How the results depend on the processing

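Of all probes tested, 0 passed an adjusted p of 0.05 with averaged swap pairs, 70 passed among the 14304 probes above background on all 8 arrays of a group, 315 with 8 single arrays and swap pair as a replicate block, and 936 with 8 single arrays and a dye term. In each of these 3 settings 1 member probe passed, IGFBP7, at an unchanged ratio of 1.88 (limma, adjusted p = 0.0434, 0.0193 and 0.0136). The unadjusted p of IGFBP7 was smaller in each of them too: the first setting changes both the number of probes and the variance estimate, and the other two enter both arrays of a pair. Under its other alternatives IGFBP7 was higher in AAPH and not past the threshold. The IGF2R ratio of 0.01 turned negative with median centring (-0.0446), with the authors' deposited ratios (-0.00729) and within slides 78 and 79 (-0.0442), and leaving out 1 swap pair at a time gave -0.0566 to 0.0896. The IGFBP2 ratio of -0.02 was 0.0412 with median centring. The cause was not tested. IGF2, IGF1R, IGFBP3, IGFBP4 and IGFBP6 kept their direction and did not pass the threshold under any alternative that gave a value, with IGF2 at 1.05 to 2.79. IGFBP5, which was near background, ranged from -0.137 to 0.226. The filter on all 8 arrays left values for IGFBP7 and IGF2R alone. Signal over background limits IGF2 in swap pair 4, its other probes, IGFBP3 in swap pairs 3 and 4, IGF1R, IGFBP2, IGFBP4, IGFBP5 and IGFBP6.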
